A study of Rattus norvegicus with 39 samples.

Results

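The cell cycle engine was followed through 10 genes in rat liver 48 h after treatment with 1 of 6 compounds; each was named by its symbol, and all 10 were on the array. They are the D-type cyclin genes Ccnd1, Ccnd2 and Ccnd3, the cyclin E gene Ccne1, the cyclin A gene Ccna2, the cyclin B genes Ccnb1 and Ccnb2, and the kinase genes Cdk1, Cdk2 and Cdk4, with 14 probe sets between them among 14217 measured genes. The study hybridized RNA of the left lateral liver lobe to 39 Affymetrix Rat230 version 2 arrays, 1 per sample, from rats aged 5 to 6 weeks. ANIT (125 mg/kg in corn oil), DMN (15 mg/kg in water), DNP (15 mg/kg in water) and Roziglitazone, as the labels spell it (1000 mg/kg in methylcellulose), were given by mouth. NMF (1000 mg/kg in saline) and Caerulein (50 µg/kg in saline) were injected into the peritoneum. Each compound group had 5 rats and the untreated control group 9, and since no control was given a vehicle, effects of a compound, its vehicle and its route cannot be told apart. From general knowledge, and not from the labels, ANIT, DMN and NMF are liver toxicants. Strain and sex are not given in the sources used here.

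Cyclins are the regulatory subunits that switch on cyclin-dependent kinases. D-type cyclins with Cdk4 or its close relative Cdk6 respond to growth signals in G1, the gap before DNA synthesis, and cyclin E with Cdk2 follows at the entry into S phase, when DNA is copied. Cyclin A acts through S phase and G2, and cyclin B with Cdk1 starts mitosis. Adult hepatocytes rest outside the cycle and enter it after loss or injury of liver tissue, with a rise of cyclin D1 as an early step.

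Values are log2 of the deposited intensity, so a difference of 1 is a doubling, and levels of different genes are not set against each other because probe sets differ in brightness. Each gene was represented by its probe set with the highest mean. Groups were compared with limma, and a gene is said to have risen or fallen where its p-value, adjusted by Benjamini and Hochberg over all 14217 genes, was under 0.05. A group mean of at most 4.96, the 95th percentile of the bacterial spike probe sets, was taken as near background, and a fold against it is a lower bound. RNA came from whole tissue, in which fewer cells of a type and less RNA per cell cannot be told apart. The 9 measured hepatocyte markers were far above background, with a summed intensity of 88100 to 119000 in the controls and 104000 to 121000 in ANIT, DMN and NMF.

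Some arrays stood apart from their groups. Each array's deviation from the mean of the other 38 arrays was correlated across genes with that of each group mean. The array labelled ANIT 3 correlated at 0.705 with DMN and 0.301 with ANIT, while for the array labelled Roziglitazone 2 the values were 0.802 (ANIT) and -0.303 (Roziglitazone), and the array labelled DMN 2 reached 0.00344 with DMN. The highest value of DMN 2 was 0.120, with Roziglitazone. Roziglitazone 1 (-0.221), control 5 (-0.0860) and DNP 1 (-0.0612) had lower values with their own groups than DMN 2. Every control and DNP array correlated best with another group. The 3 arrays were thus not chosen by a cutoff on this value. A set of 6 arrays (ANIT 5, DMN 3, DNP 1, NMF 3, Roziglitazone 1 and control 4) had little signal near the 5′ end of GAPDH, with a log2 ratio of its 5′ to its 3′ control probe set under -2, a ratio known to fall with RNA degradation. All were kept, and calls that changed without ANIT 3, DMN 2 and Roziglitazone 2, or without these 6, are given beside the results.

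The 3 toxicant groups had different sets of the 10 genes called against control, which by itself is no test of a difference between them. In DMN 6 rose (Ccnd1, Ccne1, Ccna2, Ccnb1, Ccnb2 and Cdk1), where 10.4% of all genes were called, 5.87% as higher and 4.53% as lower. In ANIT 3 rose (Ccnd1, Ccne1 and Ccna2) against a background of 16.5% called, 8.19% higher and 8.29% lower. In NMF Ccne1 and Cdk4 rose against a background of 7.48%, 3.85% higher and 3.63% lower. None of the 10 fell in these comparisons, which share their control arrays. Without the 6 arrays low in GAPDH 5′ signal, Ccnd1 (0.94, adjusted p = 0.0644) and Ccnb1 (0.99, adjusted p = 0.0565) were no longer called in DMN, and Cdk1 was called in ANIT (1.38, adjusted p = 0.0340). The median log2 difference of the 10 genes was 1.02 in DMN, 0.44 in ANIT and 0.04 in NMF, beside medians over all genes of -0.06, -0.09 and -0.05.

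**Figure D1:**
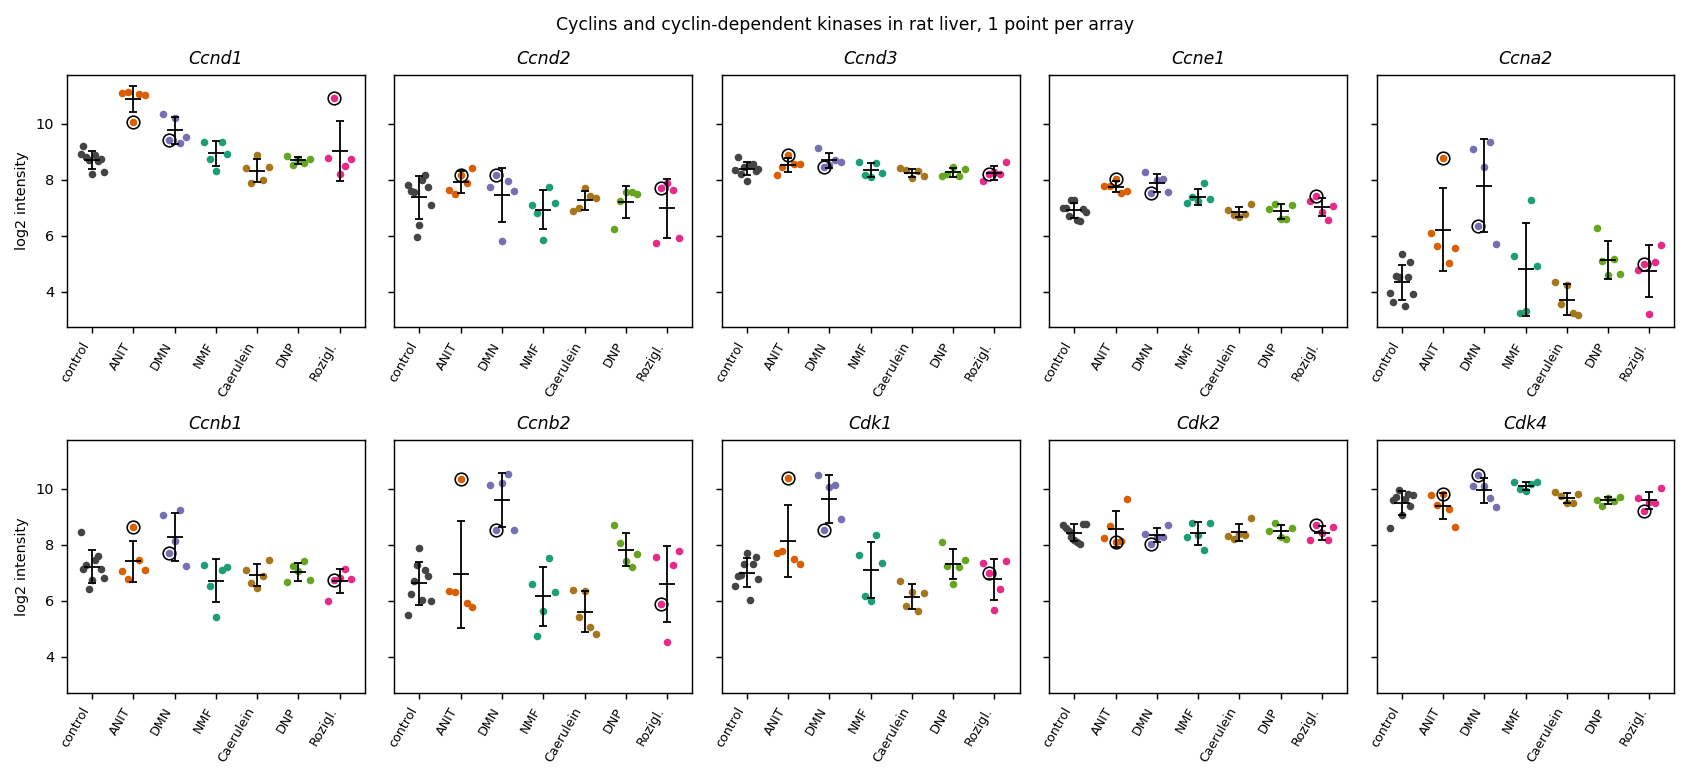
Log2 intensity (y axis) of the 10 genes in each array, by group (x axis), with the mean and SD of each group as black bars and the arrays labelled ANIT 3, DMN 2 and Roziglitazone 2 circled. Ccnd1 is highest in ANIT, while Ccna2, Ccnb2 and Cdk1 are highest in DMN and in the single array ANIT 3.

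Ccnd1, which encodes the D-type cyclin induced by mitogens, was the gene with the clearest rise in ANIT. Its 5 ANIT arrays read 11.10, 11.13, 10.05, 11.07 and 11.03, with the lowest value in the array labelled ANIT 3. The controls ranged from 8.20 to 9.22 with a median of 8.73, so the groups did not overlap. The rise was 4.50-fold (log2 2.17 ± 0.28 SE, adjusted p = 2.64e-06). Without ANIT 3, DMN 2 and Roziglitazone 2 the ANIT mean was 11.09 ± 0.04 (SD, n = 4) and the rise 5.19-fold. Arrays that do not overlap with higher values in ANIT were found for 2 of the 10 genes, Ccnd1 and Ccne1, and for 2.73% of all genes.

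In DMN, Ccnd1 read 10.35, 9.42, 10.21, 9.31 and 9.52, above all controls. The rise of 2.07-fold (1.05 ± 0.28, adjusted p = 0.0111) was smaller than in ANIT, and the difference between the compounds was itself called (1.12 ± 0.32, adjusted p = 0.0468). That difference was lost without ANIT 1, 2, 4 or 5 or DMN 2, 4 or 5 (adjusted p from 0.0934 to 0.138), and the DMN rise without DMN 1 (adjusted p = 0.0536). The DMN rise also did not pass when the probe sets of a gene were averaged (1.18, adjusted p = 0.140). NMF arrays read 9.33, 8.74, 8.32, 9.35 and 8.92, which overlapped with the controls (0.22 ± 0.28, adjusted p = 0.747). Against NMF, Ccnd1 was 3.86-fold higher in ANIT (1.95 ± 0.32, adjusted p = 1.13e-04), with no overlap of arrays. The share of all genes without overlap was not counted for that pair. DMN against NMF gave 0.83 ± 0.32 (adjusted p = 0.147), and without the 3 arrays that stood apart 0.92 (adjusted p = 0.00640), which passed.

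Across the 7 groups the mean level of Ccnd1 ran from ANIT (10.88 ± 0.46 SD) through DMN (9.76 ± 0.48), Roziglitazone (9.01 ± 1.08), NMF (8.93 ± 0.43), control (8.71 ± 0.32) and DNP (8.69 ± 0.13) to Caerulein (8.32 ± 0.40). Only the step from ANIT to DMN was larger than the larger SD of the neighbouring groups. The third place of Roziglitazone rested on 1 array, since Roziglitazone 2 read 10.90 and the other 4 read 8.19 to 8.77. Without that array the Roziglitazone difference from control turned from 0.30 to -0.17, called in neither case.

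Ccnd1 has 3 probe sets, and they did not measure the same size of change. In ANIT, 1371643_at, the one used above, rose 4.50-fold, 1371150_at 10.2-fold (adjusted p = 2.14e-04) and 1383075_at 13.8-fold (adjusted p = 4.51e-04), with p-values adjusted over all probe sets. In DMN the folds were 2.07, 2.55 and 2.22, and only that of 1371643_at was called (adjusted p = 0.0157, against 0.185 and 0.402). The other probe sets spread more widely: 1383075_at ranged from 5.53 to 8.76 in the controls and 1371150_at from 5.65 to 8.10. Of the 6 arrays low in GAPDH 5′ signal, 4 were the lowest of their own group in 1371150_at and 3 in 1383075_at, against 1 in 1371643_at. The part of RNA quality in the differences between probe sets was not tested.

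**Figure D2:**
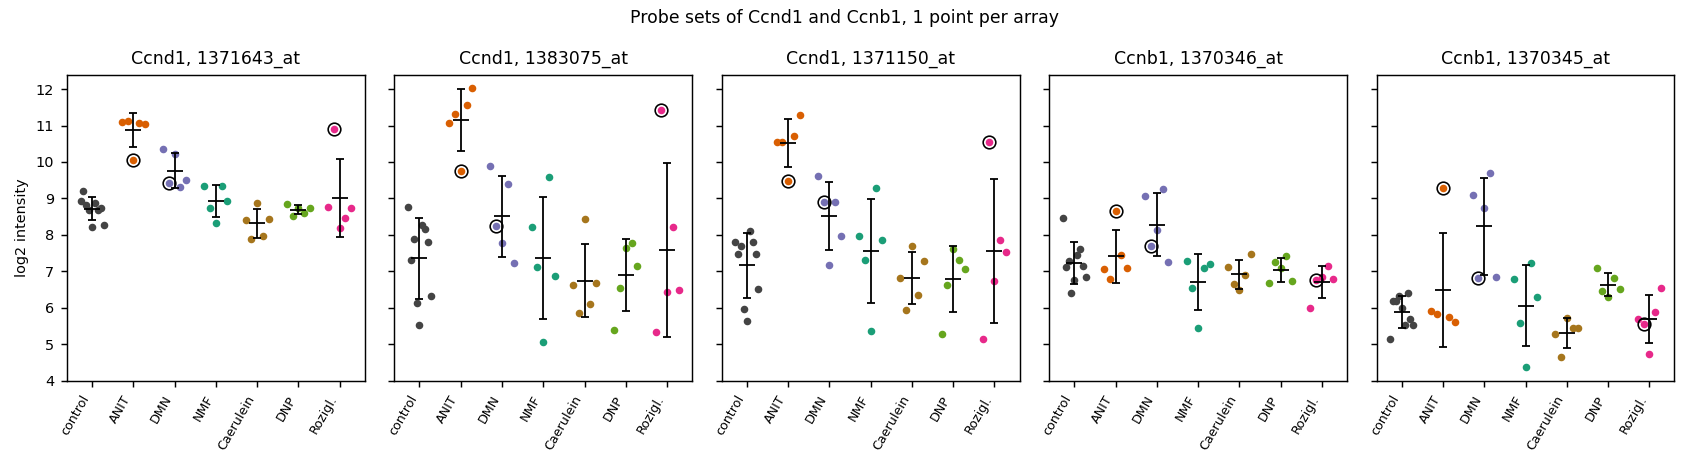
Log2 intensity (y axis) of the 3 probe sets of Ccnd1 and the 2 of Ccnb1 in each array, by group (x axis), with group means and SDs as black bars and the same 3 arrays circled. ANIT is the highest group in every Ccnd1 probe set, and the controls of 1383075_at (5.53 to 8.76) spread more than those of 1371643_at (8.20 to 9.22).

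The other D-type cyclin genes did not pass the test in any toxicant, although Ccnd3 passed in DMN with array weights (0.35, adjusted p = 0.0425). Ccnd2 was at 0.55 ± 0.38 in ANIT (95% interval -0.22 to 1.33), 0.09 ± 0.38 in DMN (-0.68 to 0.86) and -0.44 ± 0.38 in NMF (-1.21 to 0.34), so the ANIT interval reached past the size of the Ccnd1 rise in DMN. Of the 6 arrays low in GAPDH 5′ signal, 5 held the lowest Ccnd2 value of their group, with 5.80 in DMN 3, 6.22 in DNP 1, 5.83 in NMF 3, 5.74 in Roziglitazone 1 and 5.94 in control 4. Without these arrays Ccnd2 was at 0.25 in ANIT, 0.32 in DMN and -0.34 in NMF, and again not called. Ccnd3 was at 0.13 ± 0.14 in ANIT (-0.15 to 0.41), 0.29 ± 0.14 in DMN (0.01 to 0.57, adjusted p = 0.189) and -0.04 ± 0.14 in NMF (-0.32 to 0.24).

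Ccne1, the partner of Cdk2 at S phase entry, was the only one of the 10 genes called in ANIT, DMN and NMF alike. The ANIT arrays read 7.77, 7.78, 8.03, 7.53 and 7.58, and the DMN arrays 8.29, 7.53, 7.97, 8.04 and 7.57. The controls lay from 6.52 to 7.28, below every array of both groups. Ccne1 rose 1.79-fold in ANIT (0.84 ± 0.16, adjusted p = 2.72e-04) and 1.97-fold in DMN (0.98 ± 0.16, adjusted p = 6.41e-05). The rises did not differ between ANIT and DMN by the test (-0.14 ± 0.18, adjusted p = 0.760).

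In NMF, Ccne1 read 7.17, 7.36, 7.23, 7.88 and 7.31, overlapping with the controls but above their mean in 5 of 5 arrays. The rise was 1.41-fold (0.49 ± 0.16, adjusted p = 0.0455). Leaving out NMF 2, 4 or 5 or control 1, 2, 3, 6, 7, 8 or 9 ended the call (adjusted p between 0.0525 and 0.221), and the value without NMF 4, the array at 7.88, was 0.37. In the order of mean levels, DMN (7.88) and ANIT (7.74) stood above NMF (7.39), then Roziglitazone (7.02), control (6.90), DNP (6.87) and Caerulein (6.84). The steps from ANIT to NMF and from NMF to Roziglitazone were larger than the larger SD of the pair, and the others were not.

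Cdk4, the kinase partner of the D-type cyclins, rose in NMF. Its NMF arrays read 10.23, 9.99, 9.91, 10.16 and 10.24, within a narrow range above the control mean of 9.51. Controls spread from 8.61 to 9.97. The rise was 1.52-fold (0.60 ± 0.19, adjusted p = 0.0454), a call that ended when NMF 1, 2, 4 or 5 or control 1, 2, 5, 6 or 8 was left out (adjusted p between 0.0515 and 0.116). Cdk4 was at 0.45 ± 0.19 in DMN (adjusted p = 0.141) and -0.12 ± 0.19 in ANIT (adjusted p = 0.701). DMN and NMF did not differ by the test (-0.16 ± 0.22, adjusted p = 0.878). ANIT was lower than NMF by 1.65-fold (-0.72 ± 0.22, adjusted p = 0.0366). The arrays of this pair did not overlap, which was not counted over all genes. The call was lost without ANIT 2, 4 or 5 or NMF 1, 2, 4 or 5 (adjusted p from 0.0551 to 0.172).

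Cdk2, the partner of cyclins E and A, was not called in any toxicant. Its differences were 0.12 (95% interval -0.27 to 0.52) in ANIT, -0.09 (-0.49 to 0.31) in DMN and -0.02 (-0.42 to 0.38) in NMF. A second probe set of Cdk2, 1378874_at, was not called either, with its largest difference in NMF (-0.40 ± 0.18, adjusted p = 0.264).

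**Figure D3:**
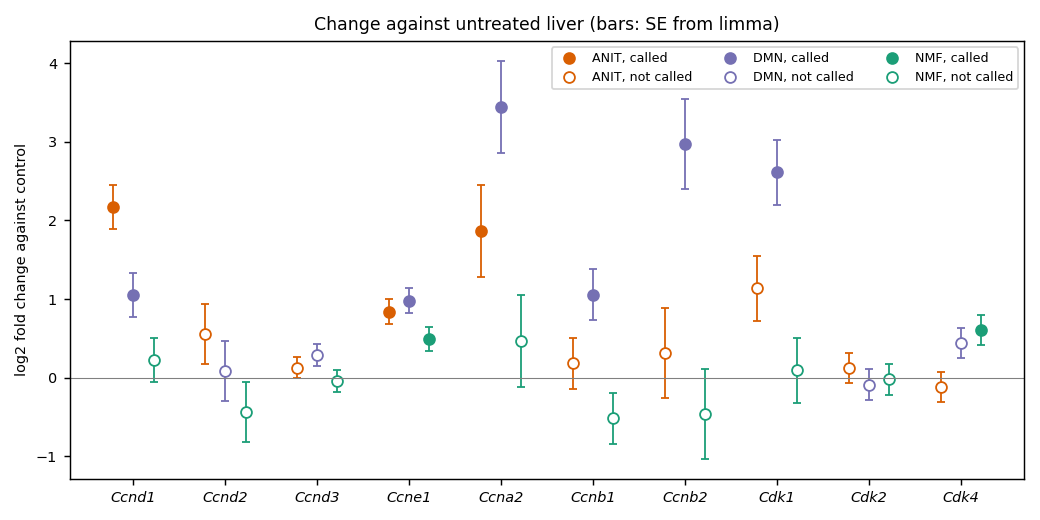
Log2 fold change against the 9 controls (y axis) of each gene (x axis) in ANIT, DMN and NMF (5 arrays each), with the SE from limma as bars and filled points for called genes. DMN stands above ANIT and NMF in Ccna2, Ccnb1, Ccnb2 and Cdk1, and ANIT above both in Ccnd1.

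The mitotic genes Ccnb1, Ccnb2 and Cdk1 were each called as higher in DMN, Ccnb1 with the least certain call, and their promoters are shown here. RefSeq windows of 300 bases (250 before to 50 after the gene start, assembly GRCr8) matched 7 of the 10 genes. There was no window for Ccnd1, Ccnd2 or Ccna2. The windows lie at chr2:33655176-33655475 on the minus strand for Ccnb1, chr8:79981609-79981908 on the minus strand for Ccnb2 and chr20:19265043-19265342 on the plus strand for Cdk1. Each is written 5′ to 3′ along the gene, and capitals mark matches on either strand to CCAAT, which reads ATTGG on the other strand and is the box bound by NF-Y. They also mark TTTGAA or TTTAAA, the forms of the cell cycle homology element. A further 3 motifs are forms of the E2F site, the first being TTCGCGC. Another of these is TTGGCGC. The last is TTCCCGC.
Ccnb1: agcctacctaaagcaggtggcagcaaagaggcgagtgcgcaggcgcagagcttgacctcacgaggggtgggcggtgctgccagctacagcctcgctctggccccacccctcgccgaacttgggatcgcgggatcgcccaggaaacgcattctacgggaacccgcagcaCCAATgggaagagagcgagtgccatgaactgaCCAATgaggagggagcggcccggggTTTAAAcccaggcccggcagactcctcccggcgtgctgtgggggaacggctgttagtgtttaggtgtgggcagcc
Ccnb2: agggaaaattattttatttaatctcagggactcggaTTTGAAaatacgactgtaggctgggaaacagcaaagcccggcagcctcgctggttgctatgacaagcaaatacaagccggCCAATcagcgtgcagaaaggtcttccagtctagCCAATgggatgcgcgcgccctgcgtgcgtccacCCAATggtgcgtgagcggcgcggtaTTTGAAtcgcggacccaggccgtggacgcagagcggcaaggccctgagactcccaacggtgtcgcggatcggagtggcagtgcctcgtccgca
Cdk1: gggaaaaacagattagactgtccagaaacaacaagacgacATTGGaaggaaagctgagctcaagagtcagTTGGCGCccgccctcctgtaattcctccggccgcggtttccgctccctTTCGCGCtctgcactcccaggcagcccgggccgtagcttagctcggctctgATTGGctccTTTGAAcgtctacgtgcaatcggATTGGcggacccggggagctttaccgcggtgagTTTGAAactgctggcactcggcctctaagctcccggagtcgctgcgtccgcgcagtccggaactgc

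Ccnb1 held CCAAT 82 and 50 bases upstream of its start and TTTAAA at 25. Ccnb2 held CCAAT at 134, 101 and 68 and TTTGAA at 214 and 43. Cdk1 held CCAAT on the opposite strand at 210, 81 and 49, TTTGAA at 72 and 16, TTGGCGC at 180 and TTCGCGC at 132. No matches overlapped. Among 33469 promoter windows, 37.5% held CCAAT, 18.3% TTTGAA, 13.6% TTTAAA, 1.51% TTCGCGC, 2.26% TTGGCGC and 4.21% TTCCCGC. At least 2 CCAAT with a TTTGAA or TTTAAA, a combination chosen after the sequences were seen, stood in 3.07%. Of the other windows, Ccne1 held TTTAAA, Ccnd3 held CCAAT, Cdk2 held CCAAT and TTCCCGC, and Cdk4 held none of the 6. These are matches of letters and no measure of binding.

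Ccna2, which acts from S phase to the start of mitosis, had the largest rise of the 10 genes in DMN. The DMN arrays read 9.10, 6.33, 8.44, 9.32 and 5.70, with DMN 2 and DMN 5 lower than the rest. The controls lay from 3.49 to 5.34 around a mean of 4.33, near background, and no array overlapped. The rise was at least 10.9-fold (3.45 ± 0.59, adjusted p = 1.45e-04). In DMN, 5 of the 10 genes (Ccnd1, Ccne1, Ccna2, Ccnb2 and Cdk1) lay above all controls in every array, as did 1.34% of all genes.

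Ccnb2, a mitotic cyclin of the Golgi and cytoplasm, read 10.14, 8.55, 10.22, 10.53 and 8.54 in DMN and 5.49 to 7.89 in the controls. It rose 7.83-fold (2.97 ± 0.57, adjusted p = 5.94e-04). Cdk1, the kinase that drives entry into mitosis, read 10.48, 8.52, 10.06, 10.15 and 8.91 in DMN against 6.03 to 7.72. It rose 6.12-fold (2.61 ± 0.41, adjusted p = 5.48e-05). In both genes and in Ccna2, the arrays DMN 2 and DMN 5 were the lower pair and DMN 1, 3 and 4 the higher. Without ANIT 3, DMN 2 and Roziglitazone 2 the rises were at least 14.0-fold for Ccna2, 9.39-fold for Ccnb2 and 7.40-fold for Cdk1. The DMN array left out there, DMN 2, was 1 of the lower pair, which favours larger rises.

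Ccnb1, the main mitotic cyclin, had a smaller and less certain rise. The probe set used, 1370346_at, read 9.08, 7.70, 8.13, 9.25 and 7.24 in DMN and 6.41 to 8.46 in the controls, which overlap. The rise was 2.08-fold (1.05 ± 0.33, adjusted p = 0.0315) and did not pass when DMN 1, 3 or 4 or control 4 or 9 was left out (adjusted p between 0.0521 and 0.153). A second, dimmer probe set, 1370345_at, read 9.08, 6.82, 8.74, 9.71 and 6.83 in DMN and 5.15 to 6.41 in the controls, with no overlap. It rose 5.10-fold (2.35 ± 0.48, adjusted p = 0.00151 over all probe sets), with the same DMN arrays low as in Ccna2, Ccnb2 and Cdk1.

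In ANIT these genes depended on 1 array. Ccna2 read 6.08, 5.62, 8.77, 5.00 and 5.55, Ccnb2 6.36, 6.32, 10.35, 5.92 and 5.78, and Cdk1 7.71, 7.80, 10.41, 7.51 and 7.31, each with the array labelled ANIT 3 far above the others. Ccna2 was called (at least 3.65-fold, 1.87 ± 0.59, adjusted p = 0.0248), and without ANIT 3 it was not (1.23, adjusted p = 0.151). Nor was it called without ANIT 3, DMN 2 and Roziglitazone 2 (adjusted p = 0.143). Cdk1 was at 1.14 ± 0.41 (adjusted p = 0.0533) with all arrays and at 0.57 (adjusted p = 0.329) without ANIT 3. It passed the threshold without ANIT 4 or 5 or control 5 or 8 (adjusted p between 0.0367 and 0.0480). It also passed with median centring (0.0407), quantile normalization (0.0497), the filter on dim genes (0.0458), array weights (0.0171) and the GAPDH ratio as a covariate (0.0474). Ccnb2 was at 0.32 ± 0.57 and Ccnb1 at 0.18 ± 0.33, and without ANIT 3, DMN 2 and Roziglitazone 2 both changed sign, to -0.53 and -0.13, neither of them called.

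None of these genes was called in NMF. Ccna2 read 5.26, 3.22, 3.31, 7.28 and 4.93, a spread in which NMF 4 was highest, and its mean of 4.80 was near background as in the controls. Ccnb1 was at -0.51 ± 0.33, Ccnb2 at -0.46 ± 0.57 and Cdk1 at 0.09 ± 0.41, with adjusted p from 0.416 to 0.946. NMF 4 was also the highest NMF array in Ccnb2 (7.54) and Cdk1 (8.36). NMF arrays lay above all controls for 0 of the 10 genes and for 2.13% of all genes.

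Direct comparisons between the toxicants gave the following. DMN against NMF called 4 of the 10 genes, all higher in DMN, where 4.66% of all genes were called: Ccna2 (at least 7.89-fold, adjusted p = 0.00447), Ccnb1 (2.97-fold, 0.00708), Ccnb2 (10.8-fold, 7.62e-04) and Cdk1 (5.73-fold, 5.95e-04). ANIT against NMF called 2, Ccnd1 higher and Cdk4 lower, where 6.61% of all genes were called. ANIT against DMN called 2, where 2.53% of all genes were called: Ccnd1, higher in ANIT, and Ccnb2, lower in ANIT by 6.27-fold (-2.65 ± 0.65, adjusted p = 0.0221). The Ccnb2 difference was lost without ANIT 1, 2, 4 or 5 or DMN 4 (adjusted p from 0.0617 to 0.0979). Without ANIT 3, DMN 2 and Roziglitazone 2, 5 of the 10 genes differed between ANIT and DMN, where 7.85% of all genes were called in that fit. The additional genes were Ccna2 (-2.58, adjusted p = 0.0109), Ccnb1 (-1.33, 0.0271) and Cdk1 (-2.32, 3.22e-04), all lower in ANIT, and each was also called without ANIT 3 alone (0.0259, 0.0389 and 0.00157). In the same fit DMN against NMF called Ccne1 (0.57, adjusted p = 0.0426) in addition to Ccnd1, where 7.23% of all genes were called. ANIT 3 and DMN 2 were singled out on these same expression values, ANIT 3 for its likeness to DMN and DMN 2 for its lack of it. Leaving them out favours larger differences between DMN and the other groups, so the added calls are no independent support. With the 6 arrays low in GAPDH 5′ signal left out, ANIT against DMN no longer called Ccnd1 (1.19, adjusted p = 0.132) or Ccnb2 (-2.20, 0.160). ANIT against NMF then no longer called Cdk4 (-0.58, adjusted p = 0.136). DMN against NMF then no longer called Ccna2 (2.44, adjusted p = 0.0748) or Ccnb1 (1.29, 0.0552). These 3 comparisons reuse the same 15 arrays.

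The balance of both sides was summarised per array, as the mean difference from the control mean over Ccnd1, Ccnd2, Ccnd3 and Ccne1 (G1) and over Ccna2, Ccnb1 and Ccnb2 (mitotic), with no test. Because Ccna2 was near background in the controls, and in NMF too, the size of the mitotic means is uncertain, and those of ANIT and DMN are lower bounds. In ANIT the G1 mean was 0.92 ± 0.09 (SD, n = 5), from 0.82 to 1.06, and the mitotic mean 0.79 ± 1.35. On the mitotic side 4 ANIT arrays lay from 0.06 to 0.44 and ANIT 3 at 3.19. In DMN the G1 mean was 0.60 ± 0.28 and the mitotic mean 2.49 ± 1.14, from 1.10 to 3.64. NMF stood at 0.06 ± 0.38 and -0.17 ± 1.08, with NMF 4 highest on both sides (0.56 and 1.24).

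The G1 minus the mitotic mean was -1.89 ± 1.05 in DMN, negative in 5 of 5 arrays from -2.98 to -0.61. In ANIT it was 0.13 ± 1.35, made of 4 arrays from 0.39 to 0.98 and ANIT 3 at -2.25. Without ANIT 3 it was 0.73, and with other single arrays left out it went down to -0.08. NMF had 0.23 ± 0.75, from -0.01 to 0.46 with single arrays left out, and the controls ranged from -0.98 to 0.70. DMN 2 (-0.91) and DMN 5 (-0.61) lay within that control range. DNP, given like DMN in water by mouth, was also negative in every array, at -0.69 ± 0.50 and from -1.46 to -0.20. Caerulein had 0.47 ± 0.37 and Roziglitazone 0.02 ± 0.94, both with Ccna2 near background. With Ccnb1 and Ccnb2 alone as the mitotic genes, which leaves out Ccna2, the differences were -1.41 in DMN, 0.67 in ANIT and 0.55 in NMF. The array labelled ANIT 3 had a G1 mean (0.94) within the ranges of both ANIT and DMN, and its mitotic mean (3.19) lay within the DMN range.

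**Figure D4:**
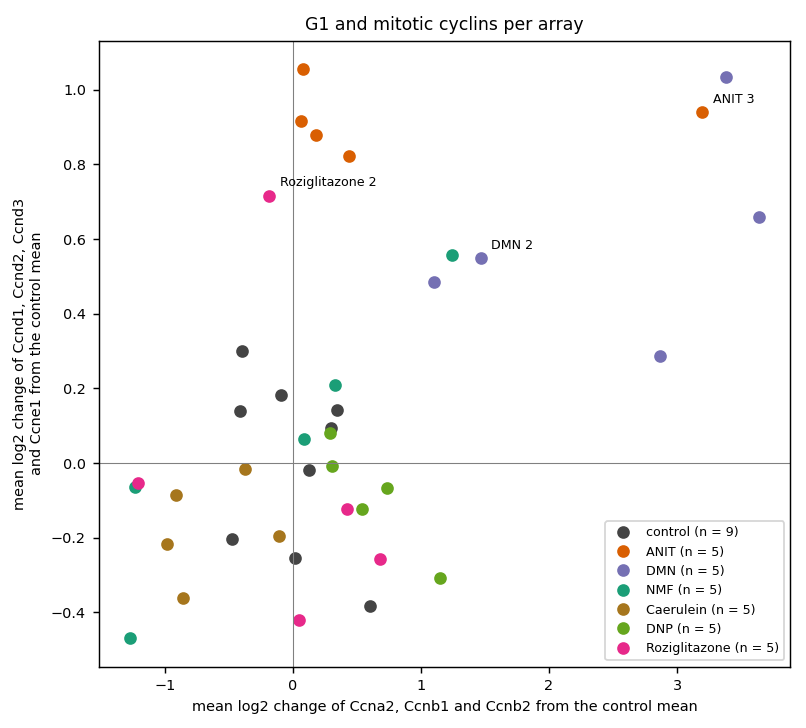
Each point is 1 array, with the mean log2 change of the mitotic cyclins Ccna2, Ccnb1 and Ccnb2 on the x axis and of the G1 cyclins Ccnd1, Ccnd2, Ccnd3 and Ccne1 on the y axis, both from the control mean. The other 4 ANIT arrays lie high on the y axis with x from 0.06 to 0.44, the DMN arrays extend from 1.10 to 3.64 on the x axis, and ANIT 3 lies at 3.19.

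Caerulein, DNP and Roziglitazone called none of the 10 genes in limma, and 0% of all genes in each, 0% in Caerulein, 0% in DNP and 0% in Roziglitazone. At an unadjusted p under 0.05 there were 1, 1 and 0 of the 10 genes and 541, 199 and 1044 of all genes. The gene in Caerulein was Cdk1, at -0.86 ± 0.41 (adjusted p = 0.994) and below the control mean in 5 of 5 arrays. The gene in DNP was Ccnb2, whose mean was 2.29-fold that of the controls and which lay above their mean in 5 of 5 arrays. DNP arrays read 8.71, 8.05, 7.43, 7.22 and 7.69 for Ccnb2, within or above the control range of 5.49 to 7.89.

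Pairs of compounds with the same vehicle and route were set side by side. DMN and DNP were both given at 15 mg/kg in water by mouth. In DMN 5 of the 10 genes were higher, where 6.89% of all genes were called: Ccna2 (6.23-fold, adjusted p = 0.0113), Ccnb1 (2.38-fold, 0.0326), Ccnd1 (2.11-fold, 0.0322), Ccne1 (2.01-fold, 3.82e-04) and Cdk1 (4.93-fold, 0.00171). Ccnb2, higher in DNP than in any other group but DMN, differed by 1.77 ± 0.65 (adjusted p = 0.0920). Without the 3 arrays that stood apart, Ccnb2 (2.03, adjusted p = 0.0119) and Ccnd3 (0.49, adjusted p = 0.0444) were called as well, where 11.1% of all genes were called. The call of Ccnb1 was lost without DMN 1, 3 or 4 or DNP 1, 3 or 5 (adjusted p from 0.0521 to 0.121), and that of Ccnd1 without DMN 1 or 3 or DNP 2, 3, 4 or 5 (0.0512 to 0.102).

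NMF and Caerulein were both injected in saline, at 1000 mg/kg and 50 µg/kg. In limma 0 of the 10 genes were called (2 at an unadjusted p under 0.05), where 5.49% of all genes were. Ccne1 (0.55 ± 0.18, adjusted p = 0.0587) and Cdk4 (0.42 ± 0.22, adjusted p = 0.314) had higher means in NMF, and neither was called. Their arrays did not overlap, but the share of all genes without overlap was not counted for this pair. Ccne1 passed without Caerulein 5 (adjusted p = 0.0483) and without the 3 arrays that stood apart (adjusted p = 0.0405).

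Across the 39 arrays, Ccna2, Ccnb2 and Cdk1 followed each other closely. Pearson's r was 0.95 between Ccna2 and Cdk1, 0.89 between Ccnb2 and Cdk1 and 0.88 between Ccna2 and Ccnb2. Taken as deviations from the group means, the same pairs had 0.91, 0.89 and 0.87, so arrays of 1 group varied together as well. Ccnd1 and Ccnb2 had 0.22 across arrays and -0.11 within groups, and Ccnd1 and Ccne1 0.69 and 0.28. These values share arrays and normalization and are descriptive.

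The genes most like Ccnd1 over the 39 arrays were Rnd1 (r = 0.90), the tetraspanin gene Cd151 (0.89), the MYB family gene Mybl1 (0.89), the growth factor gene Pdgfa (0.88) and Rhbdf2 (0.87), which encodes an inactive rhomboid protein. Those most like Ccnb1 were the mitotic kinase gene Aurka (0.85), the kinetochore gene Zwilch (0.76), Iqgap3 (0.76), the spindle gene Dlgap5 (0.74) and RT1-CE5 (0.73), a class I gene of the rat major histocompatibility complex.

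Genes around the cyclins were read from lists of the pathway, whose counts stand against 16.5% of all genes called in ANIT, 10.4% in DMN and 7.48% in NMF. The CDK inhibitors, which hold cyclin complexes in check, had 4 of 8 measured genes higher in DMN, none higher and 1 lower in ANIT, and none in NMF, with list medians of 0.62, 0.03 and -0.23. In DMN, Cdkn3, a phosphatase acting on Cdk1 and Cdk2 whose arrays did not overlap with the controls, rose 4.12-fold (2.04 ± 0.36, adjusted p = 1.95e-04). Cdkn1a, the p53 target p21, rose 2.81-fold (1.49 ± 0.39, adjusted p = 0.00936) and Cdkn1b, or p27, 1.54-fold (adjusted p = 0.0435). In ANIT, Cdkn1c fell by 0.43 (adjusted p = 0.0323). Between 2 and 4 of the inhibitors were called in DMN when single arrays were left out, with 2 without DMN 1, 3 or 4 or control 3, 7 or 8. The ANIT call was lost without ANIT 1, 2, 4 or 5 or control 2 or 9.

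Among 19 other cyclin and CDK genes, ANIT had 4 higher and 3 lower, DMN 2 higher and NMF none, with medians of 0.03, -0.04 and -0.06. The DMN share is about that of all genes. Ccng1, a target of p53, rose 2.97-fold in ANIT (adjusted p = 0.00121) and 4.68-fold in DMN (adjusted p = 3.15e-05). Ccng2 fell by 0.94 and Ccni rose 1.48-fold in ANIT, and Cdk7, the kinase that activates other CDKs, rose 1.77-fold in DMN. The ANIT counts fell to 1 higher and 1 lower without ANIT 2 or ANIT 5, to 3 and 1 without ANIT 1, to 2 and 2 without ANIT 4 or control 2, and to 2 and 3 without control 3. The DMN count was 1 without DMN 2.

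RB and E2F genes, the switch between G1 cyclins and S phase genes, had 2 of 12 higher and 1 lower in ANIT, 2 higher in DMN and 1 lower in NMF, with medians of 0.25, 0.15 and -0.07. The NMF share is near that of all genes. Rbl1, which encodes the RB relative p107, rose 3.26-fold in ANIT (1.70 ± 0.45, adjusted p = 0.00846) and 2.96-fold in DMN (adjusted p = 0.0214). E2f5 rose 1.59-fold and E2f7 fell by 0.89 in ANIT, and E2f8, near background in the controls, rose at least 2.09-fold in DMN. Rb1 fell by 1.05 in NMF (adjusted p = 0.0251). These counts were 1 lower in several fits: in ANIT the higher ones without ANIT 1, 2 or 3 or control 2 and the lower one without ANIT 4 or 5, in DMN without DMN 1 or 3, and in NMF without NMF 1, 2 or 5. Of 9 genes for CDK regulators and partners, none was called in ANIT (1 without control 5). In DMN 3 were higher, with Cks2 at 3.02-fold (adjusted p = 0.00207), Mnat1 at 1.73-fold and Cks1b at 1.63-fold. That DMN count was 2 without DMN 2, 3, 4 or 5 or control 2 or 6, and 4 without control 4. Cdc25b, a phosphatase that activates CDKs, fell by 1.38 in NMF (adjusted p = 0.0479), a call lost without NMF 1, 2, 4 or 5 or control 1, 3, 4, 5, 6 or 7.

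DNA replication genes, which act after the G1 cyclins, had 8 of 16 higher in ANIT and 9 of 16 in DMN, with none lower. Mcm6, a subunit of the replicative helicase, rose 4.75-fold in ANIT (2.25 ± 0.44, adjusted p = 4.94e-04) and 4.67-fold in DMN (2.22 ± 0.44, adjusted p = 8.58e-04), with no overlap of arrays in either. Mcm4 rose 2.43-fold and Tyms, the thymidylate synthase gene, 1.80-fold in ANIT, and Tyms 3.70-fold and the primase gene Prim1 2.77-fold in DMN. Leaving out single arrays gave 6 to 8 in ANIT, the fewest without ANIT 3 or control 6, and 8 to 11 in DMN. In NMF only Gmnn, the inhibitor of replication licensing, rose (1.44-fold, adjusted p = 0.0210), a call lost without NMF 4 or 5, and 2 genes were called without NMF 3. The list medians were 0.47 in ANIT, 0.56 in DMN and 0.23 in NMF.

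Mitosis and cyclin degradation genes had 12 of 20 higher in DMN, 2 in ANIT and none in NMF, with medians of 0.77, 0.19 and -0.12. Ube2c, which marks mitotic cyclins for destruction, rose 8.06-fold in DMN (3.01 ± 0.46, adjusted p = 3.82e-05) with no overlap of arrays. The checkpoint kinase gene Bub1, near background in the controls, rose at least 5.03-fold and the kinesin gene Kif20a 4.56-fold. Single arrays left out gave 8 to 13 in DMN, and 15 were called without ANIT 3, DMN 2 and Roziglitazone 2. In ANIT, Top2a rose 1.75-fold and Fzr1 1.58-fold. Without ANIT 3, DMN 2 and Roziglitazone 2 the ANIT median turned to -0.16. None was called without ANIT 3 alone, 1 without ANIT 5 or control 1, 6, 8 or 9, and 4 without control 5.

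Growth signals upstream of cyclin D1 had 1 of 12 genes called in ANIT, 2 in DMN and 1 in NMF, shares not far from those of all genes, with medians of 0.10, 0.05 and 0.01. Jun, an early transcription factor of growth stimulation, rose 4.08-fold in ANIT (2.03 ± 0.45, adjusted p = 0.00179). Egfr, the receptor of epidermal growth factor, fell by 0.85 in DMN (adjusted p = 0.0134) and by 1.22 in NMF (adjusted p = 4.14e-04). Tgfb1 rose 1.84-fold in DMN (adjusted p = 0.0441), a call lost without DMN 1, 3 or 5 or control 1, 5 or 8, and 2 genes were higher without DMN 2. No other of the 12 genes was called in these groups.

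**Figure D5:**
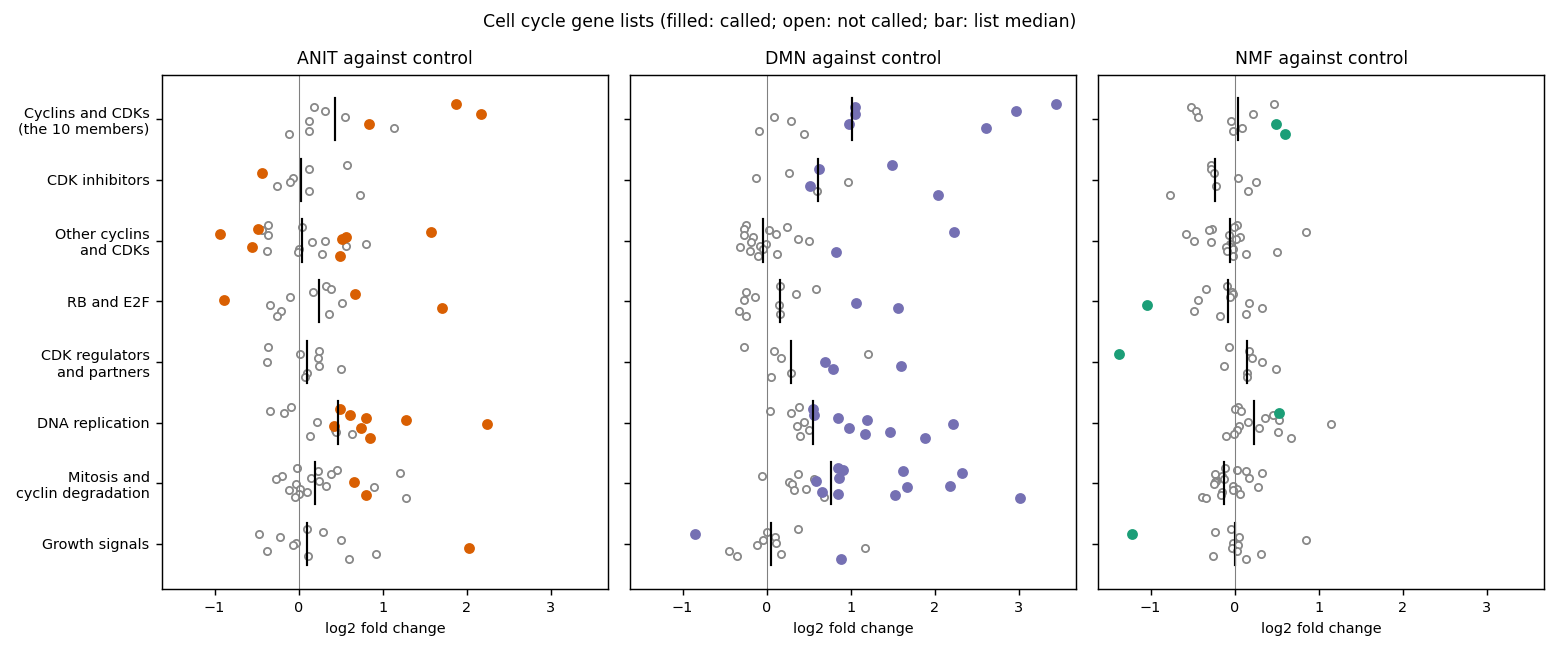
Log2 fold change against control (x axis) of every measured gene of the 10 cyclin and CDK genes and of 7 related lists (y axis) in ANIT, DMN and NMF, with filled points for called genes and a bar at each list median. Mitosis genes have a median of 0.77 in DMN and 0.19 in ANIT, and DNA replication genes 0.56 and 0.47.

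Some markers of other cells were also called in DMN, where 10.4% of all genes were called. Of 6 neutrophil markers 4 were higher (Csf3r, Mmp8, S100a8 and S100a9), with a summed intensity from 399 to 7200 in DMN and 436 to 1190 in the controls, and Mmp8 was near background in both. Of 10 macrophage markers Gpnmb and Lyz2 were higher and Clec4f lower (sum 10100 to 20700 against 8830 to 12600). Of 7 erythroid markers Alas2 was higher and Epb42 lower (7650 to 21900 against 5870 to 13500). None of 10 lymphocyte markers was called (855 to 1220 against 774 to 1170), nor any of 9 hepatocyte markers. Markers were also called in ANIT and NMF, where 16.5% and 7.48% of all genes were. In ANIT, Gpnmb, Lyz2, Timp1, Epcam, Tfrc and Apoa1 were higher and Adgre1, Cd8a, Lck, Lrat, Krt19, Kdr and Stab2 lower. In NMF, Gpnmb and Epcam were higher and Clec4f, Csf1r, Col1a1, Col3a1, Lrat, Alas2 and Hbb lower. No neutrophil marker was called in either.

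Values by array were as follows. The neutrophil sum was highest in DMN 5 (7200), where Ccna2 was lowest (5.70), and lowest in DMN 2 (399), where Ccna2 was 6.33. The array labelled ANIT 3 held the highest ANIT sums for neutrophils (2869 against 558 to 751), macrophages (15490 against 10040 to 12430) and erythroid cells (17550 against 8408 to 10860). Of 10 stellate cell markers DMN had 3 higher and 1 lower (sum 3290 to 6100 against 4370 to 8510), and of 8 endothelial markers 3 lower and none higher (3000 to 5050 against 3320 to 7420). Of 6 cholangiocyte markers 1 was higher and 1 lower (622 to 1440 against 575 to 1090), and Cftr was near background. The part of these cells in the cyclin results was not tested.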

How the data were processed

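RNA of 39 rat livers was measured on Affymetrix arrays, and the table deposited by the authors holds probe set intensity on a linear scale, from 5.4 to 23152.1. RMA and the affy package are named per the submitters' processing notes, with no version. The plan had assumed log2 values on deposit, so log2 was taken here. Arrays had a mean intensity of 348 to 363 and a median intensity of 77.8 to 108.7, and their number limits the precision. No 2 arrays were identical.

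Of 31099 probe sets, 20826 had 1 gene symbol in the platform annotation, 436 had several and 9780 none. Only the first were used, with symbols updated through RefSeq for 20758. The brightest probe set represented each gene, with no filter on dim genes. The model, in limma 3.58.1 under R 4.3.3 (lmFit, contrasts.fit, eBayes), had a mean for each of the 7 groups and used all 39 arrays. The rats are labelled as biological replicates. The fit was tested on simulated data with independent normal noise. Those data held no outlying or degraded arrays, so that test does not cover the arrays that stood apart here.

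The 10 genes, the lists, the markers and the doubted arrays (ANIT 3, DMN 2 and Roziglitazone 2) were chosen with earlier results of these data known. Named genes are the 10, up to 3 called genes per list with the largest change in ANIT, DMN and NMF, and the 5 most correlated with Ccnd1 and Ccnb1. Marker genes called in ANIT, DMN or NMF and a few others were named after their values were seen. Alternatives were 2 other scalings, a filter, an offset of 16, other probe set rules, array weights, a GAPDH covariate, the replicate number as a block, fewer groups and arrays left out. Promoter windows come from RefSeq (GRCr8).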

Additional observations from a re-analysis of the deposited data

Results flagged for a closer look

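In 9 of 70 sets of values (10 genes in 7 groups) 1 array lay far from the rest of its group by Dixon's criterion, which chance meets in about 1 of 20. The array labelled ANIT 3 accounted for 4. Its Ccnd1 was low at 10.05, next to 11.03 in the nearest ANIT array, and its Ccna2 (8.77, nearest 6.08), Ccnb2 (10.35, nearest 6.36) and Cdk1 (10.41, nearest 7.80) were high. Roziglitazone 2 had a Ccnd1 of 10.90, the nearest array of its group being at 8.77. Ccnd2 was low in DMN 3 (5.80, nearest 7.59) and DNP 1 (6.22, nearest 7.25), both among the arrays with little GAPDH 5′ signal. Ccne1 was high in NMF 4 (7.88, nearest 7.36), the array whose omission lowered the NMF rise to 0.37. Cdk2 was high in Caerulein 5 (8.95, nearest 8.39).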

How the results depend on the processing

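Over the alternatives run, the count of the 10 genes called ranged from 4 to 7 in DMN and from 2 to 4 in ANIT, and was 0 in Caerulein, DNP and Roziglitazone in each. Counts that moved were these. ANIT against DMN (2) gave 6 with array weights, 5 without the 3 doubted arrays, 1 with median centring, quantile normalization, the mean of probe sets or every probe set, and 0 with the 2 groups alone or without the 6 arrays low in GAPDH 5′ signal, a choice made after seeing the data. ANIT against NMF (2) gave 1 with median centring, the 2 groups alone or without those 6. DMN against NMF (4) gave 7 with array weights and 2 with the 2 groups alone or without the 6, and DMN against DNP (5) gave 3 without the 6. NMF against Caerulein (0) gave 1 with either scaling, array weights, the filter on dim genes or without the doubted arrays. NMF against control (2) gave 1 with quantile normalization and 0 with every probe set or the 2 groups alone. With single arrays left out the ranges were 0 to 5 (ANIT against DMN), 1 to 2 (ANIT against NMF), 3 to 5 (DMN against DNP), 0 to 1 (NMF against Caerulein) and 0 to 2 (NMF against control). In NMF, Cdk4 did not pass with quantile normalization, nor Ccne1 or Cdk4 with every probe set or the 2 groups alone, nor Ccnb1 in DMN with the 2 groups alone. The cause was not tested.

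The replicate block gave 0 in NMF, 1 in ANIT against DMN and 1 in ANIT against NMF, and 2 in ANIT and 4 in DMN against control. With the block Ccnd1 and Ccnb1 in DMN, Ccna2 in ANIT, and Ccne1 and Cdk4 in NMF were not called (adjusted p = 0.0610, 0.0852, 0.0816, 0.264 and 0.0586). Deviations of same-numbered arrays correlated above 0.1 in 26 of 55 pairs (up to 0.662, in DMN against NMF), but in 0 of 11 comparisons for every pair, so the numbers were not taken to pair the rats.

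Signs turned for genes that were not called. Median centring, which moves the median of all genes by 0.13 in ANIT and 0.10 in DMN, gave Cdk4 in ANIT 0.011, Cdk2 in DMN 0.011, and in NMF Ccnd3 0.053 and Cdk2 0.073. Quantile normalization gave Cdk2 in NMF 0.011. Array weights gave Ccnb1 -0.092 and Ccnb2 -0.0092 in ANIT, Ccnd2 -0.079 in DMN, Cdk2 0.11 in NMF and Ccnd1 -0.048 in Roziglitazone. Without the doubted arrays Ccnb1 was -0.13 and Ccnb2 -0.53 in ANIT, Ccnd2 -0.091 in DMN and Ccnd1 -0.17 in Roziglitazone. Single arrays left out gave, in ANIT, Ccnb1 -0.13 to 0.34, Ccnb2 -0.53 to 0.61, Cdk2 -0.14 to 0.24 and Cdk4 -0.23 to 0.067; in DMN, Ccnd2 -0.091 to 0.50; in NMF, Ccna2 -0.15 to 0.86, Ccnd3 -0.11 to 0.020, Cdk1 -0.22 to 0.37 and Cdk2 -0.12 to 0.12; and Ccnd1 in Roziglitazone -0.17 to 0.51.

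Values of Ccna2 in the controls were near background, which limits its folds to lower bounds.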
